A study of Mus musculus with 23 samples.

Results

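Chemokines that draw T cells and NK cells into tumors, their receptors, and interferon gamma were compared in 5 transplanted mouse tumor models and in fibroblasts sorted from 4 of them. The 8 genes were Cxcl9, Cxcl10, Cxcl11, Cxcr3, Cxcl16, Cxcr6, Ccl5 and Ifng, chosen by symbol among the 24940 gene symbols of both tables, and each was found in both. Where a symbol had several transcripts, the one with the largest mean was used, chosen separately for tumors and CAFs. The choice differed between them for Cxcl11 and Cxcl16.

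Cxcl9, Cxcl10 and Cxcl11 encode ligands of CXCR3, a receptor carried by activated T cells and NK cells, and all of them are known to be induced by interferon gamma. Interferon gamma itself, encoded by Ifng, is made mainly by T cells and NK cells. CXCL16 is a membrane-bound chemokine and scavenger receptor whose receptor CXCR6 marks subsets of T cells and NK cells, and CCL5 is a chemokine made by activated T cells, NK cells and other cells. C57BL/6 mice carry a frameshift in Cxcl11, so the transcript can be measured although no functional CXCL11 protein is made.

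The whole tumors were B16-F10 melanoma (called B16 below), EO771.LMB breast (EO771), LL2 lung, MC38 colon and Pan02 pancreas tumors, with 3 tumors in each model. All grew from cells implanted under the skin of the flank of adult female C57BL/6 mice that received no other treatment, so that every group shares the host strain and site. The cancer-associated fibroblasts (CAFs) were FAP-positive cells sorted from the CD45-negative fraction of EO771, LL2, MC38 and Pan02 tumors, with 2 libraries in each model. B16 CAFs and a further model were not analysed here. The labels do not say whether tumors of a model came from separate mice, so p-values measure the spread between these samples only. The title of the Pan02 tumors reads Pan01, and the cell line label was followed.

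Sums of counts per tumor ran from 10035173 to 21946486 (median 16541399), and the reads recovered from the CAF values from 6223438 to 19537563. Within LL2, the tumor named replicate 3 was the highest for 8 of 8 members, 12 of 13 T cell markers and 8 of 8 NK cell markers. Within Pan02, replicate 2 was the highest for 7 of 8 members and for 13 of 13 T cell markers. Within B16, replicate 2 was the highest for 5 of 8 members and 10 of 13 T cell markers. Calls of a model against the rest that change without LL2 replicate 3 are given below with and without it.

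The 250 bases before the start site are shown for Ifng and for Cxcl9 and Cxcl10, ligands that interferon gamma is known to induce, because these genes differed in how far they set the models apart. Sequences are from RefSeq on GRCm38.p6 (mm10), 5′ to 3′ on the strand of the gene, with capitals marking matches to the gamma-activated site, GAS (TTCNNNGAA), the ISRE core (GAAA, any 2 bases and GAAA) or the kappa B consensus, each searched on both strands. Windows were in the table for 5 of 8 members, with Cxcr3 and Cxcr6 as the others.
Cxcl10, chr5:92348890-92349139, minus strand: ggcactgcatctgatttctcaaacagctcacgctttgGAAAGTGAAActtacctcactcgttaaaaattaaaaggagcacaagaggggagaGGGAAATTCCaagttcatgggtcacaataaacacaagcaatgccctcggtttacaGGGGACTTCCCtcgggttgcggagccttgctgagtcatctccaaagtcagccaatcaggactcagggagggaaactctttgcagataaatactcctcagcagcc
Cxcl9, chr5:92328080-92328329, minus strand: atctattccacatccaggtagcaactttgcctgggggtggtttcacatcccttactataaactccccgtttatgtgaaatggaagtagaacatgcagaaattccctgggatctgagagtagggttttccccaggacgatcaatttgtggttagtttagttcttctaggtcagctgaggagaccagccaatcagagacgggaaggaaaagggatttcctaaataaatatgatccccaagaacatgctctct
Ifng, chr10:118440796-118441045, plus strand: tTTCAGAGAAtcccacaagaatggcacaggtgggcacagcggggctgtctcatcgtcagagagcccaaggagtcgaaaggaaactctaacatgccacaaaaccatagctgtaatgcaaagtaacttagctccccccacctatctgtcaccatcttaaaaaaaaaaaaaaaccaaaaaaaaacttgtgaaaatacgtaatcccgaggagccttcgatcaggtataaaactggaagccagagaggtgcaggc

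The Cxcl10 window held 1 ISRE core match (GAAAGTGAAA) at -213 to -204 and kappa B matches at -159 to -150 and at -104 to -94, the latter made of 2 matches that overlap. The Ifng window held a GAS match at -249 to -241. The windows of Cxcl9, Cxcr3 and Cxcr6 held no match to these patterns. This does not tell whether they hold response elements that depart from the patterns, or whether binding occurs outside the windows. Among all 32851 windows of this length, 7.02% held a GAS, 2.98% an ISRE core and 7.25% a kappa B match.

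MC38 tumors had the highest levels of Cxcl10, Cxcl11 and Ifng, with all 3 MC38 tumors above the other 12 for each. Cxcl10 in MC38 stood at 566 ± 92.4 CPM (SD, n = 3), against means of 24.5 to 76.8 CPM in the other models. B16 tumors had the highest Cxcr3, while Pan02 had the highest mean Cxcl16 and B16 the lowest. Of the 8 members, 6 differed among the 5 models in edgeR's quasi-likelihood test at an adjusted p under 0.05, where 91.1% of the 15722 tested genes did so, a share above that of the members. Of the 80 tests of a member between 2 models, 26 passed, where 54.6% of such tests passed over all genes. Levels are CPM, read counts scaled to a common library size by TMM, and a fold change, on the log2 scale, sets 1 model against the averaged other 4.

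**Figure D1:**
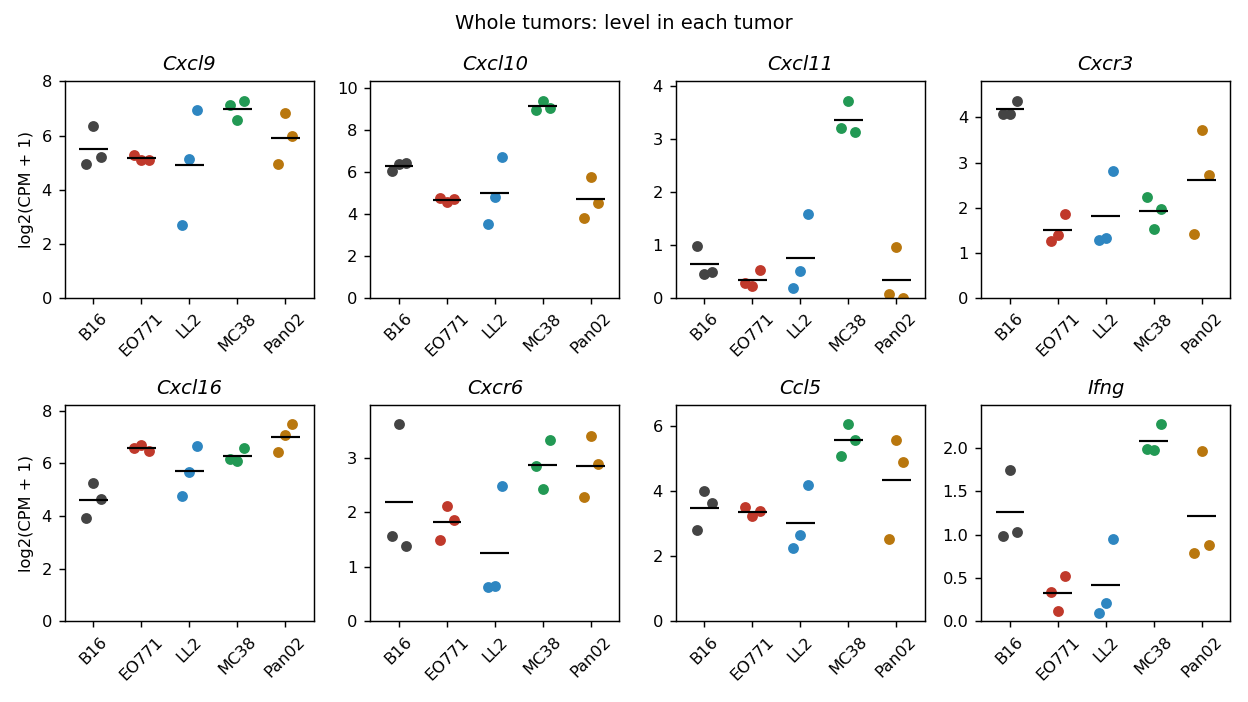
Level of each member in each of the 15 tumors, as log2(CPM + 1) on the vertical axis, by model on the horizontal axis. Points are single tumors and bars are model means (n = 3). All 3 MC38 tumors lie above the other 12 for Cxcl10, Cxcl11 and Ifng, and all 3 B16 tumors for Cxcr3, while the LL2 and Pan02 tumors are spread widely.

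Cxcl10 (5:92346639-92348889 on mm10, minus strand) was at 502, 672 and 524 CPM in the 3 MC38 tumors. In B16 it was at 64.0, 81.7 and 84.6, in EO771 at 25.7, 22.5 and 25.3, in LL2 at 10.6, 26.5 and 103, and in Pan02 at 12.9, 52.9 and 22.3 CPM. No MC38 tumor overlapped with any other, and the nearest was LL2 replicate 3. The log2 fold change of MC38 was 3.82 (SE 0.41, edgeR adjusted p = 6.1e-06). Cxcl10 fell in EO771 by 1.84 on the log2 scale (SE 0.56, adjusted p = 0.013) and in Pan02 by 1.52 (SE 0.54, adjusted p = 0.026). Both contrasts hold the high MC38 tumors on their other side. Between pairs, Pan02 was lower than MC38 alone (edgeR adjusted p = 0.066, 0.39 and 0.74 against B16, LL2 and EO771). EO771 was lower than MC38 and B16 (adjusted p = 0.00015 and 0.038). The EO771 call was lost without EO771 replicate 2 (adjusted p = 0.054) and the Pan02 call without Pan02 replicate 1 or 3 (adjusted p = 0.093 for each). In the order of the models, MC38 exceeded B16, the next, by 2.88 (SE 0.65, adjusted p = 0.0018), and no later neighbours in the order B16, LL2, Pan02 and EO771 passed the test.

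Cxcl11 (5:92359545-92363296, minus strand), beside Cxcl10 and Cxcl9 on the chromosome, was low wherever it was not MC38. Its levels were 8.23, 12.2 and 7.74 CPM in MC38, or 170.5, 245.5 and 112.5 counts. LL2 replicate 3 came next with 2.00 CPM and 32 counts, and every other tumor had at most 13.5 counts. MC38 was higher by 4.38 (SE 0.58, adjusted p = 3.6e-05), and against LL2, the next model, by 3.46 (adjusted p = 0.0064). Of the exon bases of Cxcl11, 41.7% overlap with Gm2673, and reads were counted on both strands, so the parts of each cannot be told apart.

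Cxcl9 (5:92321331-92328079, minus strand) overlapped between the models. It was at 140, 93.5 and 155 CPM in MC38, at 30.2, 81.6 and 36.2 in B16, and at 37.8, 33.5 and 33.1 in EO771. In LL2 it spread from 5.44 through 34.1 to 122 CPM, a 22.4-fold range, and in Pan02 it was at 29.8, 112 and 62.1. The EO771 tumors by contrast lay within 1.14-fold. MC38 was higher by 1.37 (SE 0.54, adjusted p = 0.047), a call that was lost in 12 of 20 alternative settings (adjusted p from 0.0041 to 0.15 over all 20, from 0.051 to 0.15 in those 12). These were leaving out any MC38 or EO771 tumor, B16 replicate 1 or 3, LL2 replicate 2, or Pan02 replicate 1 or 3, and DESeq2 (adjusted p = 0.065). The test over all 5 models gave an adjusted p of 0.17, or 0.013 without LL2 replicate 3 and 0.032 without LL2 replicate 1. None of the 10 pairs of models passed in edgeR, while 1 pair had an unadjusted p under 0.05 and 1 passed in DESeq2.

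Ifng (10:118441046-118445894, plus strand) was measured by few reads, 1 to 61.5 counts per tumor. It was at 2.98, 2.93 and 3.83 CPM in MC38, at 0.733, 2.90 and 0.840 in Pan02, at 0.982, 2.36 and 1.05 in B16, at 0.068, 0.156 and 0.939 in LL2 and at 0.265, 0.0849 and 0.436 in EO771. All 3 MC38 tumors were the highest, although Pan02 replicate 2 came close. The log2 fold change was 2.23 in MC38 (SE 0.49, adjusted p = 0.0019) and -2.27 in EO771 (SE 0.74, adjusted p = 0.019). The call in EO771 was lost without its replicate 1 (adjusted p = 0.071) or 2 (adjusted p = 0.085). MC38 and Pan02 did not differ past the threshold (1.14, adjusted p = 0.16), and B16 exceeded LL2 by 1.92 (SE 0.77, adjusted p = 0.047). In exon bases, Ifng shares 25.9% with Gm49751.

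Ccl5 (11:83525779-83530518, minus strand) was at 33.0, 65.6 and 47.2 CPM in MC38 and at 4.74, 46.4 and 29.2 in Pan02. B16 tumors had 5.99, 15.2 and 11.6, EO771 tumors 10.4, 8.41 and 9.50, and LL2 tumors 3.81, 5.37 and 17.2 CPM. MC38 was high as a group, and its lowest tumor fell below the highest Pan02 tumor. The fold change of MC38 was 1.96 (SE 0.46, adjusted p = 0.003), and its difference from Pan02 alone did not pass (0.87, adjusted p = 0.27).

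Cxcl9, Cxcl10, Cxcl11, Ccl5 and Ifng were thus the 5 members called higher in MC38, 5 of 8, where 27.0% of tested genes were higher. In DESeq2 4 of these were called, without Cxcl9. All 3 MC38 tumors lay above the other 12 for 3 of 8 members, against 7.68% of tested genes. T cell markers summed to 89.4 to 108 CPM in MC38, within the range of the other models (29.0 to 226), and 0 of 13 were called in MC38 by edgeR (1 at an unadjusted p under 0.05, 0 in DESeq2). That 1 was Cd8a, higher by 1.55 (SE 0.66, edgeR adjusted p = 0.064). NK cell markers summed to 113 to 122 CPM in MC38 and to at most 98.4 elsewhere, with 7 of 8 called higher (median 1.42), or 5 in DESeq2. This list includes granzyme and perforin genes, and Gzmb (2.14) and Prf1 (1.95) led its calls, so it does not tell NK cells from cytotoxic T cells. The part of either cell type in the higher members was not tested. In whole tumors, more or fewer cells of a type and more or less RNA per cell cannot be told apart.

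Cxcr3 (X:101731535-101734147, minus strand), the receptor of these 3 ligands, ran in another order than the ligands. B16 tumors held 16, 15.9 and 19.7 CPM, and the other 12 at most 12.2. Levels were 1.66, 12.2 and 5.64 in Pan02, 1.43, 1.51 and 6.01 in LL2, 3.71, 1.89 and 2.94 in MC38, and 1.38, 1.61 and 2.61 CPM in EO771. B16 was higher by 2.44 (SE 0.43, adjusted p = 0.00024) and was the highest without overlap, as it was for 14.5% of tested genes. B16 exceeded EO771 by 3.21, MC38 by 2.59 and LL2 by 2.53 (edgeR adjusted p = 0.0011, 0.0037 and 0.0045), but its difference from Pan02 did not pass (1.41, SE 0.62, adjusted p = 0.06). EO771 had a log2 fold change of -1.58 (SE 0.57, adjusted p = 0.032), a call lost without its replicate 1 (adjusted p = 0.13) or 2 (adjusted p = 0.11). Beside the high Cxcr3, B16 tumors had 10 of 10 pan-leukocyte markers and 8 of 8 macrophage markers lower, 1 of 13 T cell markers lower and none higher.

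Cxcl16 (11:70454389-70459984, minus strand), the ligand of CXCR6, was highest on average in Pan02, with 84.2, 133 and 177 CPM. EO771 held 93.8, 104 and 87.7, MC38 71.3, 67.5 and 94.3, LL2 26.4, 50.3 and 101, and B16 14.2, 36.9 and 24.2 CPM. The Pan02 tumors overlapped with EO771, MC38 and LL2 tumors, and the highest B16 tumor lay above the lowest LL2 tumor. Pan02 was higher by 1.19 (SE 0.31, adjusted p = 0.0043), and Cxcl16 fell in B16 by 1.78 on the log2 scale (SE 0.38, adjusted p = 0.001). Of the neighbours in the order Pan02, EO771, MC38, LL2 and B16, LL2 and B16 alone differed (1.23, SE 0.43, adjusted p = 0.025). Zmynd15, on the opposite strand, covers 18.3% of the exon bases of Cxcl16.

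Cxcr6 (9:123806477-123811754, plus strand) was low and uneven within models. It was at 1.96, 11.2 and 1.60 CPM in B16, at 1.80, 3.31 and 2.61 in EO771, at 0.544, 0.574 and 4.57 in LL2, at 6.21, 4.37 and 9.04 in MC38, and at 3.86, 9.51 and 6.42 in Pan02. All models overlapped with at least 1 other, and the highest tumor was a B16 tumor. The test over the 5 models gave an adjusted p of 0.18 (0.011 without LL2 replicate 3 and 0.04 without B16 replicate 2). None of the 10 pairs passed in edgeR, with 2 at an unadjusted p under 0.05 and 2 called in DESeq2.

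Counted by model, B16 had 1 member higher (Cxcr3; 31.9% of tested genes were higher) and 1 lower (Cxcl16; 31.6% lower). EO771 had 3 of 8 lower (Cxcl10, Cxcr3 and Ifng), near the background of 27.0%, and Pan02 had 1 higher (Cxcl16; background 32.5%) and 1 lower (Cxcl10; background 28.1%). The lower Cxcl10 calls share the high MC38 tumors on their other side. LL2 had none in edgeR (backgrounds 23.3% higher and 18.9% lower), with 1 at an unadjusted p under 0.05 and 2 lower in DESeq2. These 12 calls became 23 when LL2 replicate 3 was left out. The share of all tested genes called in that fit was not determined, so the rise cannot be read as one of the members alone.

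LL2 itself changed most when LL2 replicate 3 was left out, from 0 to 5 of 8 members lower. This tumor was the highest of LL2 for 8 of 8 members, so leaving it out lowers LL2 by construction. The lower calls are no separate measure of a low level in LL2. Without that tumor the log2 fold change of LL2 went from -0.67 to -2.0 for Cxcl10, from -0.72 to -1.73 for Cxcr3 and from -1.35 to -3.09 for Cxcr6 (edgeR adjusted p = 0.0044, 0.033 and 0.009). It went from -1.12 to -2.05 for Ccl5 and from -1.58 to -3.24 for Ifng (adjusted p = 0.026 and 0.007). The other 6 calls gained were higher ones, of Cxcr6 in MC38 and Pan02 (1.31 and 1.33), of Ccl5 in Pan02 (1.1), of Ifng in B16 and Pan02 (1.23 and 1.22) and of Cxcl16 in EO771 (0.76), with adjusted p from 0.024 to 0.042. Each of these contrasts holds LL2 on its other side, so a lower LL2 raises its fold change by construction. These higher calls are no separate measure of a high level in those models either.

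Compared per length of transcript, as RPKM, the makeup of the CXCR3 ligands differed between the models. In the 3 MC38 tumors, Cxcl10 made up 89.2% to 93.9% of the summed RPKM of Cxcl9, Cxcl10 and Cxcl11, and Cxcl9 4.93% to 9.93%. In Pan02 the shares of Cxcl9 and Cxcl10 lay close together, Cxcl9 taking 44.1% to 51.2%. Cxcl9 took 13.8% to 27.3% in B16, 16% to 32.4% in LL2 and 32.8% to 35.9% in EO771, and Cxcl11 never more than 1.17%. The summed level was 556 to 700 RPKM in MC38, 70.5 to 100 in B16, 32.2 to 36.4 in EO771, 11.6 to 135 in LL2 and 20.6 to 81.8 in Pan02.

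**Figure D2:**
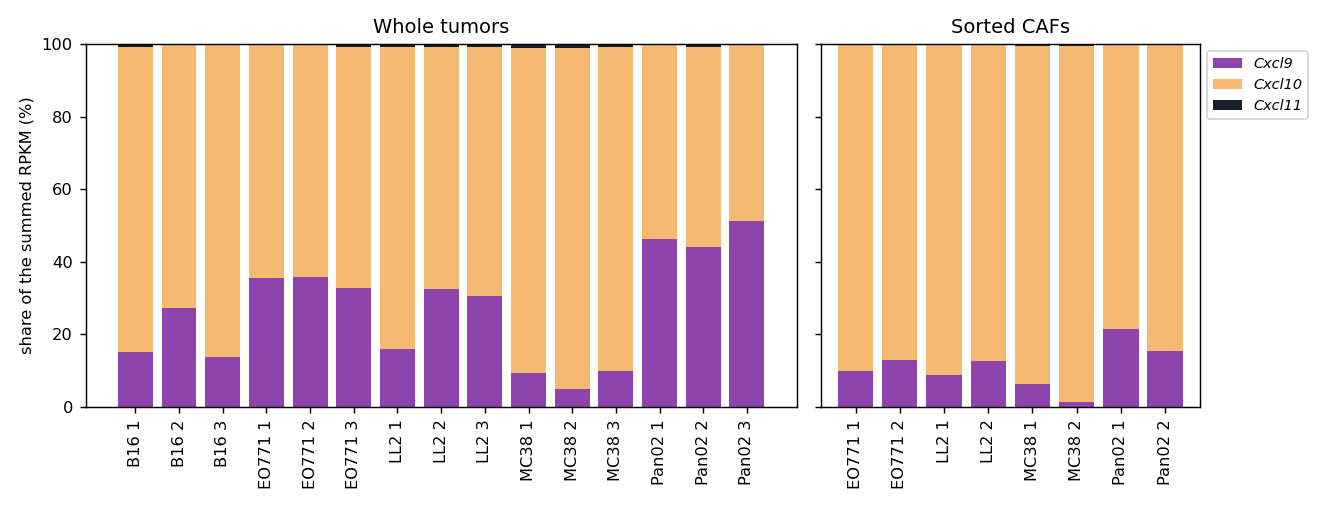
Share of Cxcl9, Cxcl10 and Cxcl11 in their summed RPKM (vertical axis, percent), for each of the 15 tumors and 8 CAF libraries. Each bar is 1 sample and sums to 100%. Cxcl10 is the largest part in 14 of 15 tumors and in all 8 CAF libraries, with its highest tumor shares in MC38, and Cxcl9 reaches its highest shares in Pan02 tumors.

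Ratios of 2 genes within a tumor were then compared, each model against the other 12 tumors, on log2(CPM + 0.5) by a 2-sided exact permutation test adjusted over 30 tests (smallest p possible 0.0022). The ratio of Cxcl9 to Cxcl10 in CPM was 0.278, 0.139 and 0.295 in MC38 and 0.427 to 2.78 elsewhere, a log2 difference of -2.36 (adjusted permutation p = 0.022). Against Cd3e, a chain of the T cell receptor complex, Cxcr3 stood at 3.79, 1.14 and 3.35 in B16 and at 1.05 or less elsewhere, a log2 difference of 1.92 (adjusted permutation p = 0.022). Cd3e itself was at 4.22, 13.9 and 5.89 CPM in B16 and at 7.61, 6.85 and 8.35 in MC38. Per Cd3e, Ifng was at 0.392, 0.428 and 0.459 in MC38 and at 0.233 or less elsewhere, 1.04 higher on the log2 scale (adjusted permutation p = 0.022). Ccl5 per Cd3e was at 4.34, 9.58 and 5.66 in MC38 and at 1.1 to 5.16 elsewhere, 1.47 higher (adjusted permutation p = 0.033), with overlap. These were the 4 ratio tests of 30 that passed, and all 4 calls were lost without any 1 MC38 tumor or B16 replicate 2 or 3 (adjusted permutation p from 0.055 to 0.13). Cxcr3 per Cd3e was also lost without B16 replicate 1 (adjusted permutation p = 0.066), and Ifng and Ccl5 per Cd3e without EO771 replicate 2 or 3 (0.055 to 0.062). With a tumor of the tested model left out, the smallest p possible is 0.011. Fewer tumors also raise the smallest p of the other tests, all adjusted over 30. Such losses therefore do not tell whether a ratio depends on the tumor left out.

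**Figure D3:**
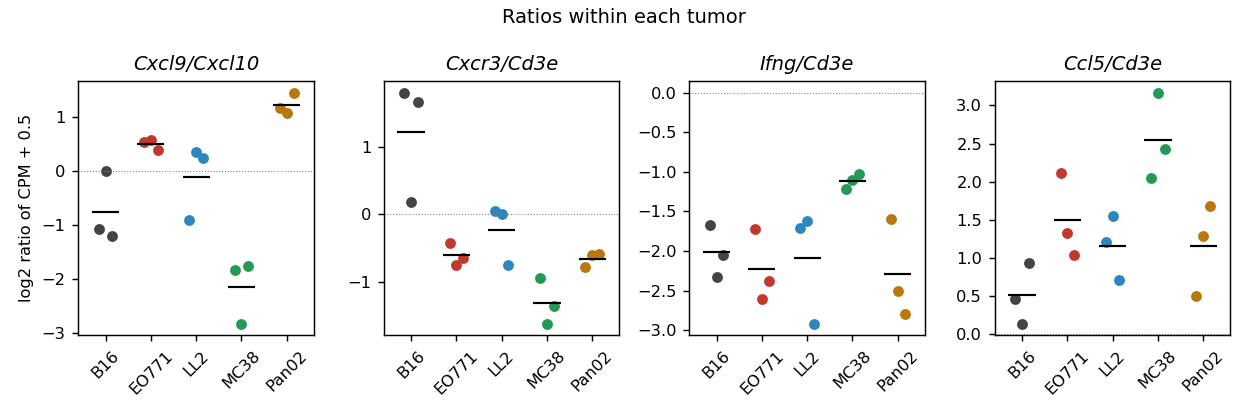
Ratio of 2 members, or of a member to the T cell gene Cd3e, within each tumor, as the log2 ratio of CPM + 0.5 (vertical axis) by model (horizontal axis). Points are tumors and bars are means (n = 3). MC38 is lowest for Cxcl9/Cxcl10 and highest for Ifng/Cd3e, and B16 is highest for Cxcr3/Cd3e, each without overlap.

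Tumors of a model also differed among themselves, and the deviations of log2(CPM + 1) from the model mean were compared for 10 pairs of ligand, receptor and inducer over the 15 tumors. Ifng and Cxcl9 moved together, with Pearson r = 0.76 (exact permutation within models, adjusted p = 0.033) and Spearman rho = 0.78 (adjusted permutation p = 0.031). Without the 2 tumors farthest from the median of Ifng, LL2 replicate 3 and Pan02 replicate 2, r was 0.57 (adjusted permutation p = 0.12): the relation no longer passed, though r stayed positive. It also missed the threshold without the B16, LL2 or Pan02 tumors (r = 0.73, 0.86 and 0.79; adjusted permutation p = 0.071, 0.077 and 0.11). None of the other pairs passed. Among those described here, r ran from 0.63 for Ifng with Cxcl11 to 0.81 for Cxcl10 with Cxcr3 (adjusted permutation p from 0.068 to 0.13), with 0.79 for Cxcl16 and Cxcr6.

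**Figure D4:**
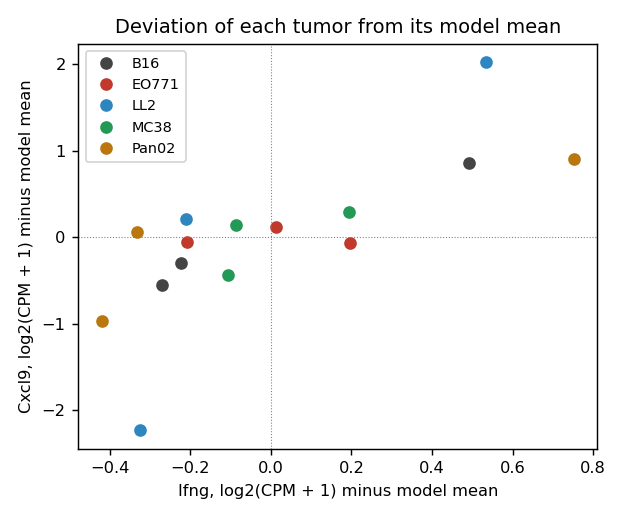
Deviation of each of the 15 tumors from its model mean, for Ifng (horizontal axis) and Cxcl9 (vertical axis), both as log2(CPM + 1). Points are tumors coloured by model. The LL2 and Pan02 tumors span most of the range (r = 0.76).

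Genes of the interferon gamma pathway were counted from a list in each model. Of 17 response genes, 13 were higher in MC38, with Gbp3, a guanylate-binding protein, at 2.24, Gbp5 at 2.23 and Tap1, the peptide transporter of antigen presentation, at 1.98 on the log2 scale. In EO771, 16 of 17 fell, the immunity-related GTPases Tgtp1, Irgm2 and Igtp by 3.57, 3.09 and 3.06. B16 had 8 higher and 1 lower, led by Tgtp1 at 2.52, Pan02 6 higher, and LL2 5 lower. In each of these 3 models a single tumor was the highest for 17 of 17 response genes, which summed to 3110 CPM in B16 replicate 2 (2360 and 2120 in the others), 3950 in Pan02 replicate 2 (1340 and 1660) and 1750 in LL2 replicate 3 (275 and 563). The median log2 fold change of the list was 1.54 in MC38, 0.94 in B16, 0.89 in Pan02, -1.06 in LL2 and -1.82 in EO771, where medians of all tested genes lay between -0.04 and 0.05 and 23.3% to 32.5% of them were higher and 18.9% to 31.6% lower. Of 14 tested inducers and producers, MC38 had 6 higher and 1 lower (list median 1.12; Eomes, a T-box factor of NK and T cells, at 3.54; Il18rap, a chain of the interleukin-18 receptor, at 2.70) and EO771 had 7 lower (median -1.12; Eomes -3.16, Il18rap -3.14, Stat4 -1.63). Il18rap was higher still in LL2 (4.0), where 2 inducers and producers were higher and 1 lower (median -0.03). B16 had 1 of them higher and 4 lower (median -0.18), and Pan02 2 higher and 1 lower (median 0.31). Of 9 genes for the receptor and its signalling, Pan02 had 6 higher (median 0.93) and B16 3 higher and 5 lower (median -0.58).

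Among 28 tested genes of the chemokine system beyond the members, the share called can be read against that of all genes. Pan02 had 18 higher and 3 lower (median 1.48), where 32.5% of all genes were higher and 28.1% lower, with Ccl17, a ligand of CCR4, at 5.15 and Cxcl13, a B cell chemokine, at 3.49. B16 had 4 higher and 13 lower (median -1.27; 31.9% and 31.6% of all genes), with the decoy receptor gene Ackr3 at -3.94. MC38 had 4 higher and 4 lower (median 0.18; 27.0% and 24.4% of all genes), among them Ccl17 at -3.17. EO771 had 2 higher and 6 lower (median -0.19; 27.2% and 27.0% of all genes), and LL2 3 and 3 (median 0.12; 23.3% and 18.9%).

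In the sorted CAFs, Cxcl10 was again highest in MC38, together with Ccl5 and Cxcl11. CAF levels are RPKM as deposited and were compared by limma on log2(RPKM + 1), with fold changes formed in the same way over 4 models. Of the members, 5 passed the filter of 1 RPKM in 2 libraries and 4 of these 5 differed among the models, where 80.4% of 13598 tested genes did. Between pairs of CAF models 13 of 30 tests of a member passed, against 48.1% over all genes. The fibroblast genes Col1a1 (467 to 3773 RPKM), Pdgfra (14.3 to 40.2) and Fap (1.89 to 11.4) were present in all 8 libraries. Epithelial markers summed to 841 to 1120 RPKM in Pan02 CAFs, 494 to 501 in EO771, 206 to 211 in LL2 and 2.08 to 4.49 in MC38, and their part in the member values was not tested. In whole tumors they summed to 9.45 to 62.6 CPM in MC38, 2120 to 3350 in Pan02, 1210 to 1270 in EO771 and 471 to 739 in LL2. The low sum in MC38 CAFs therefore does not tell how many cancer cells were carried over. Ptprc, the gene for CD45, was at 0.947 and 0.902 RPKM in EO771 and at 0.092 or less elsewhere, and the macrophage markers summed to 151 to 194 RPKM in EO771 and 6.71 to 24.1 elsewhere. Libraries are called 1 and 2 by column only.

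**Figure D5:**
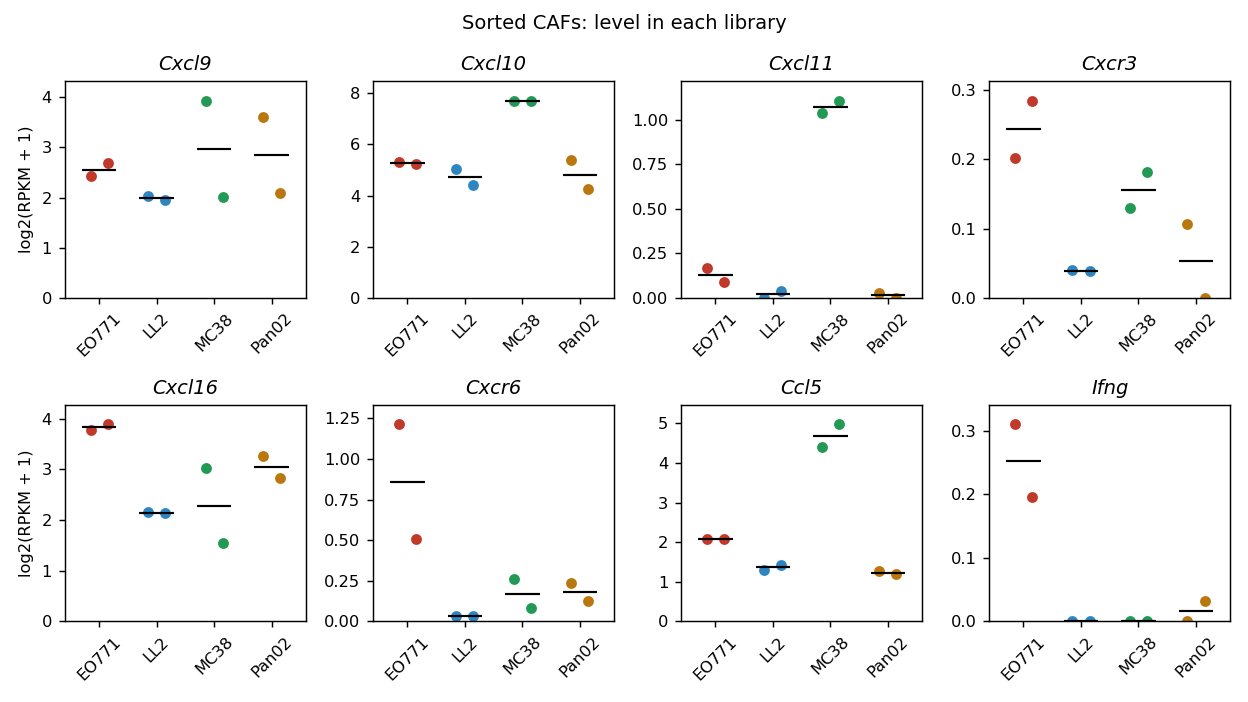
Level of each member in each of the 8 CAF libraries, as log2(RPKM + 1) on the vertical axis, by model on the horizontal axis. Points are libraries and bars are means (n = 2). Both MC38 libraries lie above the other 6 for Cxcl10, Cxcl11 and Ccl5, and both EO771 libraries for Cxcl16; Cxcr3 and Ifng stay near 0.

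Cxcl10 was at 208 and 204 RPKM in the MC38 CAFs, at 39.0 and 36.8 in EO771, at 31.5 and 20.0 in LL2, and at 41.0 and 17.9 in Pan02. The MC38 libraries stood apart from the other 6. The log2 fold change was 2.76 (SE 0.29, limma adjusted p = 0.00022), and against EO771, the next in order, 2.41 (adjusted p = 0.0011). Cxcl10 fell in LL2 by 1.22 and in Pan02 by 1.08 (limma adjusted p = 0.017 for both), calls that share the high MC38 libraries on their other side. The LL2 call was lost without either LL2 library (adjusted p = 0.052 and 0.18) and the Pan02 call without Pan02 library 2 (adjusted p = 0.13).

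Ccl5 was at 20.1 and 30.4 RPKM in MC38 CAFs, or 139.5 and 148 reads, at 3.21 and 3.23 in EO771, and at 1.28 to 1.71 in the other libraries. MC38 was higher by 3.13 (SE 0.16, limma adjusted p = 1.7e-05), EO771 exceeded LL2 by 0.71 (adjusted p = 0.028; lost on recovered reads in edgeR, 0.96, adjusted p = 0.061), and the fold changes of LL2 and Pan02 were -1.29 (adjusted p = 0.0011) and -1.48 (adjusted p = 0.00026). In the same MC38 libraries the 10 pan-leukocyte markers summed to 6.90 to 9.64 RPKM, below the 11.2 to 80.1 of the other models, with 5 of 8 tested lower in limma and 3 on recovered reads (31.3% of all tested genes were lower). T cell markers summed to 7.89 to 9.99 RPKM in MC38 and 3.65 to 5.62 elsewhere, with Foxp3, the factor of regulatory T cells, higher by 1.25 and Cd3g and Cd8a at 0. Dendritic cell markers summed to 12.3 to 14.2 RPKM in MC38 and 2.15 to 9.06 elsewhere, with 3 of 5 tested higher (Batf3 by 2.02, Ccr7 by 1.94) and 1 lower (Itgax, -1.16). The part of such cells in the Ccl5 values was not tested. Cxcl11 was at 1.06 and 1.16 RPKM in MC38 CAFs, 21.5 and 16.5 reads, and at 0.125 or less elsewhere, a difference of 1.02 on the log2(RPKM + 1) scale (SE 0.10, limma adjusted p = 0.00016). Its lower calls in LL2 and Pan02 (-0.39 in both) rested on at most 1 read in any LL2 or Pan02 library and were lost on recovered reads in edgeR (adjusted p = 0.099 and 0.13). They were also lost without EO771 library 1 or either Pan02 library, and that of LL2 without EO771 library 2 or either LL2 library (0.054 to 0.16).

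Cxcl16 was highest in EO771 CAFs, at 12.7 and 13.8 RPKM, with 3.46 and 3.40 in LL2, 7.16 and 1.92 in MC38, and 8.59 and 6.15 in Pan02. EO771 lay above the others by 1.34 (SE 0.34, limma adjusted p = 0.014), a call lost without either EO771 library (adjusted p = 0.077 and 0.096). Its test over the 4 models (adjusted p = 0.021) was lost without either library of EO771 or of LL2 (0.063 to 0.087). Cxcl9 overlapped between the models, at 4.35 and 5.45 RPKM in EO771, 3.07 and 2.88 in LL2, 14.3 and 3.05 in MC38 and 11.2 and 3.24 in Pan02, and gave an adjusted p of 0.50 over the 4 models. The MC38 libraries were 4.67-fold apart for Cxcl9 and 3.72-fold for Cxcl16, and at 2771 and 467 RPKM for Col1a1.

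The receptors and Ifng were near the lower end of detection in CAFs. Cxcr3 had at most 7 reads in any library. Cxcr6 had 51.5 and 16 reads in the EO771 libraries (1.32 and 0.423 RPKM) and at most 0.2 RPKM elsewhere, and on recovered reads Cxcr6 in EO771 was higher by 3.44 (SE 0.59, edgeR adjusted p = 0.0026; background 25.5%) and in LL2 its fold change was -3.26 (SE 0.97, adjusted p = 0.039; background 13.6%), a contrast that holds the high EO771 libraries on its other side. Each LL2 library had 1 Cxcr6 read, and LL2 did not pass against MC38 or Pan02 (adjusted p = 0.16 and 0.15). Ifng had 6 and 3.5 reads in the EO771 libraries and was at 0, or at 0.023 RPKM in 1 Pan02 library, elsewhere. The EO771 libraries also had 8 of 8 macrophage markers and 7 of 8 tested pan-leukocyte markers higher, and the part of these cells in the Cxcl16, Cxcr6 and Ifng values was not tested.

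In the counts by CAF model, MC38 had 3 of 5 tested members higher (background 28.6%) and EO771 1 (Cxcl16; background 24.5%). Both MC38 libraries lay above the other 6 for 3 members (20.3% of tested genes) and both EO771 libraries for Cxcl16 among those tested (17.3%). Both Pan02 libraries lay below the other 6 for Ccl5 (15.4%). LL2 and Pan02 had the same 3 members lower, Cxcl10, Cxcl11 and Ccl5 (backgrounds 18.3% and 26.5%), and these contrasts share libraries with that of MC38. Cxcl10 made up 78.5% to 98.0% of the summed CXCR3 ligand RPKM in the 8 libraries, and the sum was 223 and 208 RPKM in MC38 and 21.1 to 52.3 in the others. Interferon gamma response genes were higher in the CAFs of MC38 (10 of 17, 1 lower; Psmb9 2.77, Tap1 2.40) and Pan02 (13 of 17; Gbp2 2.90, Gbp4 2.35), and lower in those of EO771 (12) and LL2 (13), with list medians of 1.15, 1.64, -1.01 and -1.55 in that order and all-gene medians of -0.03 to 0. Of all tested genes 14.7% to 28.6% were higher and 18.3% to 31.3% lower. Beside the response genes in Pan02 CAFs, 5 of 7 tested epithelial markers were higher (median 3.36, Krt18 5.94, Krt19 4.12).

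Set beside whole tumors of the same model as RPKM, without a test because the tables were normalised separately, Cxcr3, Cxcl16 and Ccl5 were lower in CAFs than in tumors in 4 of 4 models. For Cxcl16 the CAF and tumor values came from different transcripts of the gene. Ccl5 averaged 25.2 RPKM in MC38 CAFs and 99.9 in MC38 tumors. For Cxcl10 the relation varied. It averaged 206 RPKM in MC38 CAFs and 560 in MC38 tumors, while EO771 CAFs (36.8 to 39.0) lay above EO771 tumors (20.6 to 23.4) and the ranges overlapped in LL2 and Pan02. Cxcr6 and Ifng were lower in CAFs in 3 of 4 models, with overlap in EO771.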

How the data were processed

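Whole tumor RNA and RNA of sorted CAFs were sequenced as unstranded poly(A) libraries. For tumors, the authors deposited counts per transcript in steps of 0.5, made with STAR 2.5.0c on mm10 and HOMER, which are estimated counts and were rounded for the count tests. For CAFs, the authors deposited RPKM values without counts. These fell on half-read steps of their transcripts for 100% of values (tolerance 0.05 reads), from which reads were recovered. 1 transcript per symbol was kept, and the 2 rows that name no gene (at most 4.06e-05% of counts) and 5 columns of a model not analysed here were left out.

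Groups follow the labels. Tumors were tested with edgeR 4.0.16 (TMM, filterByExpr, quasi-likelihood F test, n = 3), CAFs with limma 3.58.1 on log2(RPKM + 1), n = 2, both in R 4.3.3, with Benjamini-Hochberg adjustment over all genes tested and a threshold of 0.05. Ratios and pairs used exact permutation (scipy 1.17.1); 1 of the 10 pairs is not reported here. The rule for names took all 8 members and from each gene list at most the 3 called genes with the largest change. The members and lists were chosen with earlier results of these data known. On simulated tumor counts for MC38 against the rest (14985 genes), edgeR recovered 60 of 93 genes changed by 1 and 107 of 107 changed by 2 on the log2 scale, with 11 false calls, and on simulated CAF values (14367 genes) limma recovered 45 of 98 and 93 of 102, with 25 false calls. Every simulated gene, in tumors and CAFs, had the same dispersion, 0.056, the common value of the tumors. The rates do not describe genes that vary more within models. The SE of members in MC38 tumors against the rest reached 0.59 (Cxcr6). Alternatives were DESeq2 1.42.0, total-count scaling, no filter, another pseudocount, transcript or threshold, and each sample left out.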

Additional observations from a re-analysis of the deposited data

How the results depend on the processing

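The calls of Cxcl10, Cxcl11, Ccl5 and Ifng in MC38 tumors, of Cxcr3 in B16 and of Cxcl16 in B16 and Pan02 stood in 20 of 20 alternatives. Leaving out 1 tumor gave 6 to 8 members that differ among models (6 with all), 8 to 23 calls against the rest (12 with all, 23 without LL2 replicate 3) and 21 to 38 calls between pairs of models (26 with all). Leaving out 1 CAF library gave 3 to 4, 7 to 11 and 9 to 14 calls (4, 10 and 13 with all). The shares of all tested genes called in the fits with a sample left out were not determined. For the ratios, leave-one-out gave 0 to 4 (4 with all): 0 without B16 replicate 2 or 3 or any MC38 replicate, and 2 without EO771 replicate 2 or 3. Fewer samples limit these tests, and the smallest p possible is 0.011 where the tumor left out is of the tested model. Of the 10 pairs within models 1 passed, and 2 did with a pseudocount of 0.1, 4 without the MC38 tumors, and 0 without the B16, LL2 or Pan02 tumors or the 2 farthest tumors. The cause was not tested. Without these 2 tumors, r turned to -0.23 for Cxcl11 with Cxcr3 and to -0.29 for Ifng with Cxcl11. Without Pan02 replicate 2, Ifng in Pan02 turned from 0.81 to -0.09 (1.22 without LL2 replicate 3). Replicate numbers do not pair the tumors: 5 of 30 same-number correlations were over 0.1 (-0.172 to 0.235), and 3 of 15 tumors correlated best with their own number. With the replicate block, counts were 6, 13 and 27. No paired analysis was possible for CAFs because their columns carry no replicate number. With TMM in place of total-count scaling the median gene of a model against the rest shifted by -0.144 in MC38 and 0.114 in Pan02 on the log2 scale, and by at most 0.0135 in the others. Few reads limit Ifng and Cxcl11 outside MC38 and the receptors in CAFs.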

Other observations

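The genes whose levels over the 15 tumors were most like those of each member, among 14318 genes, differed by member. Because model means dominate this measure and the tumors of a model share them, r is given as a description only. Cxcl10 ran with the interferon-stimulated genes Isg15 (r = 0.978), Ddx60 (0.974) and Usp18 (0.960), and Cxcl11 with Ovol2 (0.962), Ddx60 (0.961) and Ifi44 (0.961). Cxcl9 ran with Fgl2 (0.927), Il2rb (0.923), a receptor chain of T and NK cells, and the guanylate-binding protein gene Gbp5 (0.919). Cxcr6 ran with Lag3 (0.928), a checkpoint receptor, Cd3g (0.924) and Gbp8 (0.917), Ifng with Slco3a1 (0.959), Cd96 (0.955) and Gm12250 (0.950), and Ccl5 with Sp110 (0.948), Trim5 (0.931) and H2-M3 (0.930). Cxcr3, by contrast, ran with the integrin gene Itga4 (0.977), Rasal3 (0.969) and Dnajc3 (0.949). Cxcl16 ran with Zmynd15 (0.980), which shares exon bases with it, Ctsh (0.961) and Tgm2 (0.954). Among the members themselves, r was highest for Cxcl10 with Cxcl11 (0.94) and lowest for Cxcr3 with Cxcl16 (-0.37).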
